A study of Mus musculus with 46 samples.

Results

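On day 16 of reprogramming the cells were sorted by SSEA-1, and H3.3 was mapped by ChIP-Seq in the fraction that carried the antigen (D16S+) and in the fraction that lacked it (D16S-). The peaks of these 2 libraries were compared by position, by genomic class and by gene, taking every peak that the deposited lists of both libraries hold. There were 34062 peaks in D16S+ and 65454 in D16S-, 99516 together, of 1502717 in the 30 peak lists of the series. Peaks on unplaced contigs were left out, which kept 33972 and 65376 peaks.

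Both fractions came from mouse embryonic fibroblasts (MEFs) bearing an Oct4-GFP reporter and infected with pMXs retroviruses for Sox2, Klf4, Oct4 and c-Myc, grown in feeder-free medium with LIF, ascorbic acid, bFGF and CHIR99021. Cells in the study were placed on a successful route (Thy-1 negative on days 6 and 9, SSEA-1 positive on days 12 and 16) or an unsuccessful route (Thy-1 positive, then SSEA-1 negative). Libraries of MEFs on day 0 (D0), day 3, days 6, 9 and 12, iPSCs and the embryonic stem cell line D3 (ESD3) are used below only as points of reference. Each fraction was 1 library, so no difference between them has a replicate check and no test was made. Intervals are 95% Wilson intervals of a share, or the matching interval of a difference, and cover counting error only.

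H3.3 is a histone H3 variant that is placed into chromatin outside DNA replication. Hira is the chaperone known for H3.3 at genes, promoters and enhancers, and Daxx with Atrx for H3.3 at telomeres and silent repeats. SSEA-1 is a carbohydrate made by fucosyltransferases and marks mouse pluripotent stem cells, whereas Thy-1 marks fibroblasts.

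The libraries differed in yield. D16S+ held 18.7 M tags, 4.88% of them in peaks, and D16S- held 20.5 M, 12.2% in peaks. Peaks covered 29.2 Mb (1.14% of the genome) in D16S+ and 77.2 Mb (3.02%) in D16S-. Peaks of at least 5 kb numbered 159 in D16S+ and 1446 in D16S-. The fraction of more tags in peaks also had the longer list, and a peak absent from one list may only have missed its calling limits at that depth. Comparisons of positions, classes, bound genes and gene lists were therefore repeated with the 33972 highest peaks of each library by normalized tag count (tags per 10 M).

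The 4 intergenic peaks printed here are examples of peaks called in a single day 16 fraction. They were picked as the highest by tags per kb among peaks without overlap in the other fraction, overlapping iPSCs and ESD3 and holding an octamer (the OCT factor motif ATTTGCAT, either strand) for D16S+, or overlapping D0 and holding an AP-1 motif (TGANTCA) for D16S-. Of 8713 intergenic D16S+-only peaks 3183 overlapped both pluripotent libraries and 144 of those held the octamer, and of 13807 intergenic D16S--only peaks 6023 overlapped D0 and 1029 of those held AP-1. The sequences are 300 bp around the peak midpoint on the forward strand of mm9, with the motif in capitals.
D16S+ region chr17:89664222-89664521: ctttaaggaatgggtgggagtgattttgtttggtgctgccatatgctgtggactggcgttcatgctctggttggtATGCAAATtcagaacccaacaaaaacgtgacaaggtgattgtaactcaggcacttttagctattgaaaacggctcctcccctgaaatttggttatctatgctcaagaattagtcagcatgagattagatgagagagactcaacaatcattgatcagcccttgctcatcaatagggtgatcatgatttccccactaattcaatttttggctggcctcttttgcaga
D16S+ region chrX:28892100-28892399: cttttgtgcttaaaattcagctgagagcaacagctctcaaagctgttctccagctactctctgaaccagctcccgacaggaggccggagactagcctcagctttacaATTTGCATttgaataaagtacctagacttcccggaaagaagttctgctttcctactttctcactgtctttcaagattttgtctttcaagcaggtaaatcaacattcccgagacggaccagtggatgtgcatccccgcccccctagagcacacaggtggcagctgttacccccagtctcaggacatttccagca
D16S- region chr12:88318591-88318890: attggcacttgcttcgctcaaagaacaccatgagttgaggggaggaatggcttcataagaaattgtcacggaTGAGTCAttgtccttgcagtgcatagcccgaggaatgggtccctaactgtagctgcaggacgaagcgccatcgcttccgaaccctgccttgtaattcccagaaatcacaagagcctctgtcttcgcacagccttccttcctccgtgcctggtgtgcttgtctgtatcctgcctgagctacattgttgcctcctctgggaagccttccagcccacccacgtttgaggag
D16S- region chr19:55814914-55815213: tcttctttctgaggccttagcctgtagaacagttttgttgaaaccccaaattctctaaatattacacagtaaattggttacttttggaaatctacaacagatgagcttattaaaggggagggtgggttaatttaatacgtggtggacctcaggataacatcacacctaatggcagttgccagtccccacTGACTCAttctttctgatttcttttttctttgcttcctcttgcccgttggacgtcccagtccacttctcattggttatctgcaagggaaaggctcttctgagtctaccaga

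The chromosome 17 peak, 64.4 kb from the nearest coding start site (Fshr), had a normalized tag count of 22.9 in D16S+, 18.7 in D12S+, 24.1 in iPSCs and 11.1 in ESD3, and no peak in the other 8 H3.3 libraries. Its input density was 28.6 tags per kb, against a median of 6.46 over D16S+ peaks, and its fold over input was 2.28. The X chromosome peak, 238 kb from a start site, had 20.5 in D16S+, 24.7 in ESD3, 12.0 in iPSCs and 18 in D12S+. It was also called at 13.2 in D12S-, 12.7 in D9T- and 6.46 in D9T+, so the fractions of the earlier days overlap for it.

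The chromosome 12 peak, 6.04 kb from the start of Zdhhc22, had 41.5 in D16S-, 58.8 in D0 and 237 in D12S-. It was present at 37.1 in D12S+ and 42.0 in iPSCs, so its absence from D16S+ was not shared by every library of the successful route. The chromosome 19 peak, 1.24 kb from a start site of Tcf7l2, a transcription factor of Wnt signaling, had 45.1 in D16S- and 16.5 in D0. It too was present in D12S+ at 54.6 and in iPSCs at 23.4. The chromosome 12 and 19 peaks were called in every other H3.3 library used here, ESD3 included (6.71 and 16.9). Only D16S+ lacked them.

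Most peaks of either fraction had no counterpart in the other. Of D16S+ peaks 53.9% (interval 53.3 to 54.4, 18304 of 33972) shared no base with a D16S- peak, and of D16S- peaks 79.0% (78.6 to 79.3, 51621 of 65376) shared none with D16S+. With equal numbers the shares came closer, at 61.1% (20769 peaks) and 67.3% (22866 peaks). The unshared peaks had lower summed tag counts but not a lower fold over input. In the full lists the median normalized tag count was 8.27 for D16S+-only and 11.2 for shared D16S+ peaks, and 9.27 for D16S--only and 23.9 for shared D16S- peaks. The median length was 500 bp, the shortest length the caller writes, for D16S+-only peaks and 630 bp for D16S--only peaks. The median fold over input was 4.67 in D16S+-only against 4.18 in shared D16S+ peaks, and 4.36 against 4.16 in D16S-. Tags per kb had medians of 14.9 and 15.6 in D16S+, and 14.6 and 15.8 in D16S-.

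D16S+-only peaks lay more often between genes and D16S--only peaks more often in introns. Intergenic positions took 47.6% (46.9 to 48.3) of D16S+-only and 26.7% (26.4 to 27.1) of D16S--only peaks, a difference of 20.9 points (20.04 to 21.7), which was 19.7 points with equal numbers. Introns took 38.3% of D16S+-only and 54.9% of D16S--only peaks. The intergenic class is 59.8% of the genome's bases and introns are 34.3%, so D16S+-only peaks sat nearer to the genome's makeup. Promoter-TSS positions (1000 bp before to 100 bp after a coding start site) took 6.16% and 7.18% of the unshared peaks, and 16.9% of shared D16S+ and 16.1% of shared D16S- peaks. The median distance to a coding start site was 15.1 kb for D16S+-only, 10.6 kb for D16S--only and 4.92 kb for shared D16S+ peaks.

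**Figure D1:**
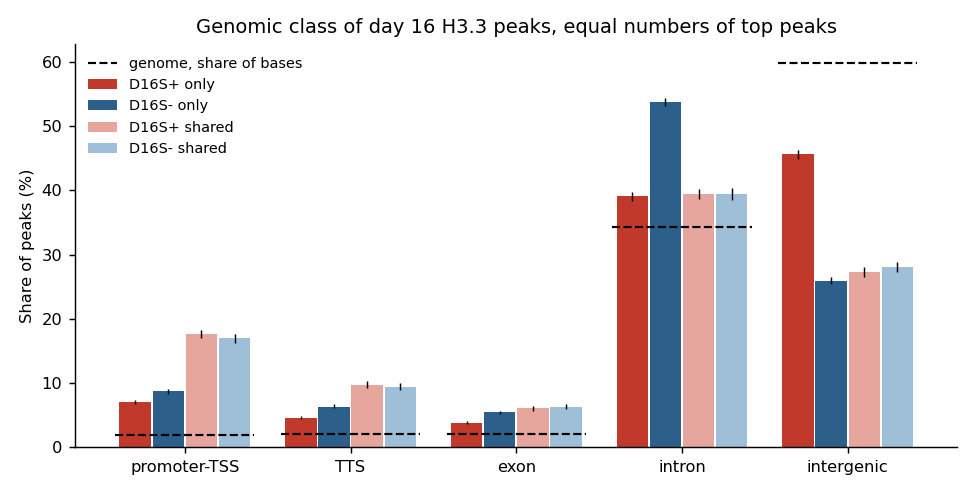
Share of day 16 H3.3 peaks (y axis, percent) in each genomic class (x axis) for the 33972 top peaks of each library, split into peaks found in one fraction only and peaks that overlap the other fraction. Error bars are 95% intervals of counting error and dashed lines give the class's share of the genome's bases; D16S+-only peaks stand at 45.6% intergenic against 25.9% for D16S--only peaks, and the shared peaks of both fractions hold the largest promoter-TSS shares.

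The X chromosome held a small share of peaks in every set. It took 1.79% (1.61 to 1.99, 328 peaks) of D16S+-only, 0.709% (366 peaks) of D16S--only and 0.377% of shared D16S+ peaks. With equal numbers the unshared shares were 1.66% and 0.455%.

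The positions held by one fraction were found in different libraries of the time course. With equal numbers of peaks in every list, 47.5% of D16S+-only peaks overlapped an iPSC peak and 24.6% of D16S--only peaks did, a difference of 22.9 points (22.0 to 23.8). For D0 the order was the other way, with 13.2% of D16S+-only and 45.3% of D16S--only peaks, a difference of -32.1 points (-32.9 to -31.3). ESD3 peaks overlapped 31.0% and 17.0%. With the full day 16 lists the differences were 28.4 points for iPSCs and -21.1 for D0. They fell to 8.38 and -7.95 points when only peaks of at least 4-fold over input counted in every list, and were 46.8 and -60.4 points for the unshared peaks among the 10000 highest of each fraction. Day 12 was unlike for its 2 fractions: D12S- overlapped 23.1% of D16S+-only and 68.3% of D16S--only peaks, while D12S+ overlapped 25.2% and 30.6%. The D12S+ difference had no stable sign, being -5.40 points with equal numbers and 4.59 points with the full day 16 lists, and by midpoints in the equal lists the shares were 18.03% and 17.4%.

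D16S--only peaks of the equal lists were longer than D16S+-only peaks (median 1080 against 500 bp), and a longer peak meets more peaks of another list. When the midpoint alone had to lie in a peak of the other library, a rule chosen after seeing the data, iPSC peaks held 43.7% of D16S+-only and 18.7% of D16S--only midpoints and D0 peaks 11.1% and 38.8%. The genome share covered by the 33972 iPSC peaks was 3.03% and by the D0 peaks 3.70%.

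Combining the libraries, 44.6% of D16S+-only peaks were in iPSCs or ESD3 and not in D0 or D3, against 11.03% of D16S--only peaks. The reverse pattern, in D0 or D3 and in neither pluripotent library, held for 8.02% of D16S+-only and 37.4% of D16S--only peaks. Peaks in none of the other 10 H3.3 reprogramming and reference libraries made up 26.4% of D16S+-only (5483) and 8.81% of D16S--only peaks (2014). With the full day 16 lists these shares were 28.6% and 23.6% (12172 peaks), so the gap depended on the number of peaks. Of shared D16S+ peaks 71.2% were in D0 or D3 and 75.9% in iPSCs or ESD3.

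**Figure D2:**
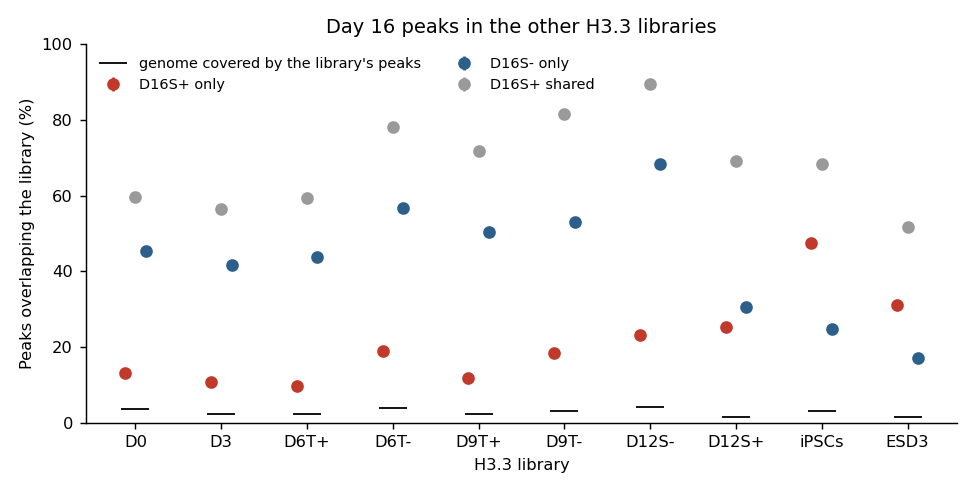
Share of day 16 H3.3 peaks (y axis, percent) that overlap a peak of each other H3.3 library (x axis), with equal numbers of peaks in every list. Points are D16S+-only, D16S--only and shared D16S+ peaks, and black marks give the genome share that the library's peaks cover; D16S--only peaks exceed D16S+-only peaks in D0 to day 12, by the widest gap in D12S- (68.3% against 23.1%) and by the narrowest in D12S+, where the order turned with the full lists, and fall below them in iPSCs (24.6% against 47.5%) and ESD3.

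H3K4me3, the mark of active promoters, and H3K36me3, the mark of transcribed gene bodies, were taken from the libraries of D0, D16S+ and iPSCs. The mark lists were used in full. They ran from 16539 peaks over 0.433% of the genome (D16S+ H3K36me3) to 57222 peaks over 6.00% (D0 H3K36me3). Shares of different mark libraries are therefore not like for like. With equal numbers on day 16, H3K4me3 peaks of D16S+ overlapped 10.6% of D16S+-only and 9.28% of D16S--only peaks, against 25.5% of shared D16S+ peaks. H3K4me3 peaks of D0 overlapped 16.1% and 31.7%, and those of iPSCs 21.1% and 19.97%. H3K36me3 peaks of D0 overlapped 18.5% and 30.4%, and those of D16S+ 4.83% and 4.51%, where the interval of the difference spanned 0 (-0.0708 to 0.723 points). Those of iPSCs overlapped 5.85% and 9.90%, a difference of -4.05 points (-4.55 to -3.55), opposite in sign to that of iPSC H3.3. By midpoints in the equal lists the D16S+ H3K36me3 shares were 2.86% (2.65 to 3.10) and 1.59% (1.43 to 1.76). The iPSC H3K36me3 shares by midpoints were 3.19% and 3.75%. With the full day 16 lists the D16S+ H3K36me3 difference was 1.30 points (0.952 to 1.66), so this result depended on the overlap rule and the lists. The D16S+ libraries of both marks had few tags in peaks, 3.71% for H3K4me3 and 1.99% for H3K36me3, which limits these shares. The iPSC H3K36me3 library was also low, at 2.88%, and the same limit holds for its shares.

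A set of 8 motifs was searched in the 300 bp around the midpoints of intergenic peaks, on both strands. AP-1 was held by 16.7% (15.8 to 17.7) of D16S--only and 9.71% (9.13 to 10.3) of D16S+-only windows, against 8.83% of all 300-bp windows of the genome. The octamer was held by 3.29% (2.95 to 3.67) of D16S+-only and 1.87% (1.56 to 2.25) of D16S--only windows, against 2.62% of the genome. ESRRB (TCAAGGTCA) followed the octamer at 1.204% and 0.827%, with a genome share of 0.639%. Shared intergenic peaks of D16S+ and D16S- held ESRRB in 1.196% and 0.996%, the octamer in 2.11% and 2.79%, and AP-1 in 10.9% and 12.4%. In introns the octamer was held by 1.86% (1.59 to 2.18) of D16S+-only and 1.68% (1.47 to 1.93) of D16S--only windows. Intronic AP-1 stood at 8.68% and 12.6%. NFY (CCAAT) stood at 39.2% and 32.7%, TEAD (GGAATG) at 20.3% and 18.2%, RUNX (TGTGGTT) at 6.03% and 7.79% and KLF (GGGTGTGG) at 2.73% and 4.05%. The genome shares of these 4 were 40.5%, 15.9%, 6.99% and 1.79%, so both sets lay below the genome for NFY and above it for TEAD and KLF. SOX (AACAATG) was at 4.72% and 4.71%, below the genome's 5.98%, with a difference of 0.0119 points (-0.689 to 0.690). The median GC content of the windows was 46.3% in both sets, against 41.8% of bases in all genome windows. The genome windows were matched for neither GC nor genomic class. A match is only a run of letters and not a bound site.

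**Figure D3:**
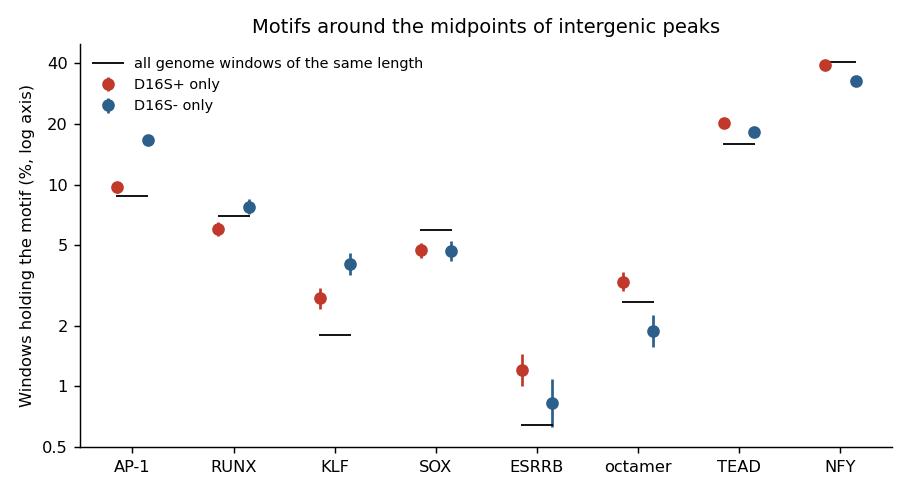
Share of 300-bp windows around midpoints of intergenic peaks that hold each motif (y axis, percent, log axis) for D16S+-only and D16S--only peaks of the equal lists. Bars are 95% intervals of counting error and black marks give the share of all genome windows; AP-1 stands at 16.7% for D16S--only against 9.71% for D16S+-only peaks, and the octamer at 1.87% against 3.29%.

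Genes were called bound where a peak midpoint lay in the gene or within 1000 bp of it. Of 22367 coding genes 9298 (41.6%) were bound in D16S+ and 12118 (54.2%) in D16S-, or 9510 (42.5%) with the equal number of peaks. Bound in D16S+ only were 1179 genes (5.27% of all) and in D16S- only 3999 (17.9%), and with equal numbers 2248 (10.1%) and 2460 (11%). A long peak can have its midpoint outside a gene that it covers, so a stricter count also required that no peak of the other fraction touch the gene or its flanks. It gave 911 genes for D16S+ (4.07% of all) and 3707 for D16S- (16.6%), and with equal numbers 1798 (8.04%) and 2245 (10%). In the full lists 26.2% (972) of the strict D16S--only genes held at least 3 peaks, and 5.27% (48) of the strict D16S+-only genes did. Genes bound in both fractions leaned the same way, 57.5% with at least 3 D16S- peaks and 32.5% with at least 3 D16S+ peaks. The part of list length in this contrast was not tested.

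The genes with the highest sums in D16S+ and no D16S- peak included regulators of pluripotency. Esrrb (chr12:87702067-87862578), an orphan nuclear receptor of the naive state, held 16 peaks summing to 182 in D16S+, 13 of them intronic, and none in D16S-. Its sum was 68.5 in D12S+, 571 in iPSCs, 539 in ESD3 and 24.8 in D0, with no peak in D12S-. Tdgf1 (chr9:110842114-110848662), a Nodal co-receptor, summed to 129 over 3 peaks, 117 in D12S+ and 115 in iPSCs, and had no peak in D12S- or D0. Both genes were thus bound in the SSEA-1 positive fraction on both days and unbound in the negative one.

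Dppa2 (chr16:48310590-48319836), a chromatin factor of the early embryo, summed to 60.8 over 4 peaks in D16S+, 120 in iPSCs and 7.11 in D12S+. Tdrd12, a germline piRNA factor, summed to 62.9 in D16S+ and 129 in iPSCs. Zfp600 and Zfp936, zinc finger genes, summed to 94.9 and 93.3, and Cacng7, a calcium channel subunit, to 77.8. These 5 genes had no D16S- and no D12S- peak. The zinc finger family has close copies, and reads mapping to more than 1 place were discarded by the authors, so sums in its members are uncertain. In D16S+ the input density of Zfp600 was 30.2 tags per kb, against a median of 6.46. Its highest peak had a fold over input of 2.03, and the part of input density was not tested.

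Gjc1, a gap junction protein, summed to 62.9 and Adarb2 to 62.2 in D16S+, but Gjc1 held 87.5 in D0 and 54.9 in D12S-. Adarb2 held 22.9 over 3 peaks in D12S- and none in D12S+, the reverse of day 16. Sfi1, a centrosome protein, rested on 1 peak of 176.8 tags with an input density of 207 tags per kb and a fold of 2.08. It was at 129 in D12S-, and its absence from D16S- was not seen on day 12. The part of input density in it was not tested.

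The genes with the highest sums in D16S- and no D16S+ peak differed in how much of their length was covered. Cd44 (chr2:102651298-102741822), the hyaluronan receptor of mesenchymal cells, held 27 peaks covering 52.6 kb and summing to 819 in D16S-. Its sum was 1471 in D0, 1389 in D12S-, 62.4 in D12S+ and 5.59 in iPSCs. Fbn1 (chr2:125126330-125333729), the microfibril protein fibrillin 1, summed to 369 over 28 peaks covering 25.1 kb in D16S-, and to 2101 in D0, 1142 in D12S- and 51.1 in D12S+. Emp1, a membrane protein, was covered by 1 peak of 25.9 kb at 482, and was at 196 in D12S+. For these 3 genes the D12S+ sum lay between its D12S- sum and the absence in D16S+.

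Olfr56, an olfactory receptor whose annotated span is long, summed to 505, Dpysl3, a cytoskeletal regulator, to 332, Fam162a to 308, Iqsec1 to 250.5 and Rgl1 to 245. Tcf19 summed to 512, but lies beside Pou5f1, and its input density was 154.5 tags per kb against a median of 7.18. The part of input density in it was not tested.

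**Figure D4:**
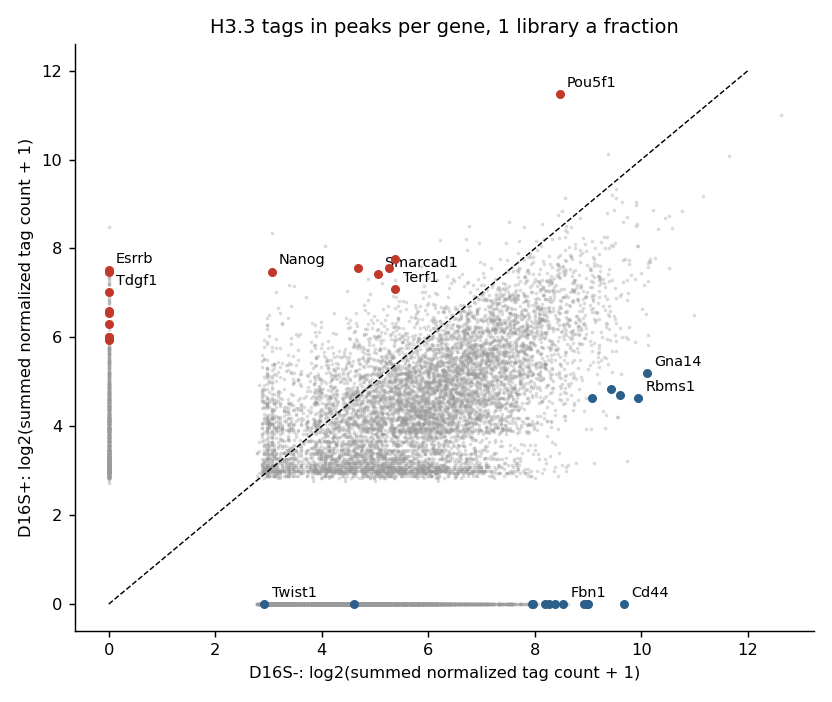
H3.3 tags in peaks summed per gene, D16S- (x axis) against D16S+ (y axis), each as log2 of the summed normalized tag count plus 1, with 1 library a fraction. Each grey point is a gene, colored points are genes named by rule (red higher in D16S+, blue higher in D16S-), the dashed line is equality and genes at 0 on an axis have no peak there; Esrrb and Tdgf1 lie at 0 in D16S-, and Cd44 and Fbn1 at 0 in D16S+.

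Among the 3924 genes with sums of at least 20 in both fractions most were higher in D16S-. The median log2 ratio of D16S+ to D16S- was -1.199, and 2257 genes (57.5%) were at least 2-fold higher in D16S- against 101 (2.57%) in D16S+. These sums are taken over peaks called separately in each library, so they follow the called length and the share of tags in peaks, and the ratios are not corrected for either. Equal numbers of peaks were not run for them. Rbms1, an RNA binding protein, summed to 23.7 in D16S+ and 981 in D16S- (log2 ratio -5.37), over 1.64 kb and 63.6 kb of peaks. Gna14, a G protein subunit, summed to 35.5 and 1096 (-4.95), and Tns1, a focal adhesion protein, to 25.1 and 771 (-4.94). Akap13 and Asap1 followed at -4.66 and -4.50. Gna14 summed to 22.9 in D0 and 2414 in D12S-, whereas Rbms1 summed to 1805 in D0 and 1201 in D12S-.

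In the other direction Pou5f1 (chr17:35642982-35647721), one of the delivered factors, summed to 2841 in D16S+ and 353 in D16S- (log2 ratio 3.01). The input density in its peaks was 233 tags per kb in D16S+ and 149.6 in D16S-, 36.01 and 20.8 times the library medians, and the fold over input of its highest peak was 2.26 in D16S+ and 2.18 in D16S-. Its called peaks covered 10.1 kb in D16S+ and 2.26 kb in D16S-, with 281 and 156.5 tags per kb. The part of input density in its tag count was not tested. Fam169a summed to 188 and 24.6 (2.93), and Ppp1r9a, a neuronal actin binding protein, to 215.5 and 40.8 (2.40). Smarcad1, a chromatin remodeler, summed to 170 and 32.2 (2.40), and Smo, the Hedgehog transducer, to 189 and 37.3 (2.34). Smo had an input density of 56.6 tags per kb in D16S+.

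Marker genes of the study followed. Nanog, a core pluripotency factor, summed to 177 over 3 peaks in D16S+ and to 7.32 in 1 peak of the D16S- list, and it was below the equal-number list of D16S-. Terf1, a telomere protein, summed to 134 in D16S+ and 40.7 in D16S- (log2 ratio 1.72), and to 115 in D12S+ and 141 in D12S-. Adcy7, an adenylate cyclase, had no D16S+ peak and 23.4 in D16S-, against 256 in D0. Twist1, a mesenchymal transcription factor, had no D16S+ peak and 6.59 in D16S-, with 40.1 in D12S- and 6.12 in D0.

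The genes of the sort itself gave weak values. Fut9, which makes SSEA-1 in mouse cells, held 2 peaks summing to 13.6 in D16S+ and none in D16S-, and Fut4, another such enzyme, had no peak in either. Thy1 had no peak midpoint in either fraction, against 101 in D0, though a D16S- peak touched it.

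Lists of genes were compared by the number bound in each fraction. Over all genes 41.6% were bound in D16S+ and 54.2% in D16S-, or 42.5% with equal numbers, so a lower share in D16S+ with the full lists is the pattern of genes in general. Fibroblast and mesenchymal genes were bound less often in D16S+, 16 of 48 (33.3%) against 38 (79.2%) in D16S-, or 27 (56.2%) with equal numbers. The differences were -45.8 points (-60.6 to -26.3) and -22.9 points (-40.4 to -3.0). With equal numbers ranked by tags per kb the difference was -18.8 points and its interval spanned 0 (-36.5 to 0.97). D16S- only were 24 members, 23 by the strict count, with Fbn1 at 369, Zeb2 at 113, Col1a1 at 78.5 and Acta2 at 51.5 in D16S-. D16S+ only were Lox at 6.93 and Myl9 at 8.80, the latter touched by a D16S- peak.

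Pluripotency genes, not all of them particular to the naive state, were bound in 31 of 43 (72.1%) in D16S+ and 25 (58.1%) in D16S-. With equal numbers 21 (48.8%) were bound in D16S-. The interval of the difference spanned 0 with the full lists (14.0 points, -6.1 to 32.5) and not with equal numbers (23.3 points, 2.6 to 41.3). D16S+ only were Esrrb, Tdgf1, Dppa2, Nr5a2, Spp1, Dnmt3b, Zfp42, Otx2 and Prdm14, which summed to between 6.93 and 182. D16S- only were Klf4 at 65.2, Dppa5a and Dppa3, and the last 2 were touched by a D16S+ peak. Leaving out the delivered factors gave 29 against 22 of 40.

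Germline genes were bound in 9 of 28 in D16S+ and 3 in D16S- (21.4 points, -0.3 to 41.2), with Tdrd12 at 62.9, Stk31 at 36.5 and Mov10l1 at 25.1 in D16S+ only. The germline list was also bound in 9 of 28 in D0 and in iPSCs. Its share in D16S+, 32.1%, lay below the 41.6% of all genes. Epithelial and junction genes were bound in 28 of 36 in D16S+ and 34 in D16S-, or 31 with equal numbers. The difference was -16.7 points (-33.0 to -0.27) with the full lists and -8.33 points (-26.0 to 9.79) with equal numbers, in the direction that all genes took with the full lists. Within them Cdh1, the epithelial cadherin, summed to 276 in D16S+ and 123 in D16S-, whereas Krt8, a keratin, had midpoints in D16S- only, at 106, and was touched by a D16S+ peak. AP-1 and MAPK genes were bound in 25 of 35 and 31, or 30 with equal numbers (-17.1 points, -35.0 to 1.85, and -14.3 points, -32.6 to 5.15), with Fosl1 at 75.9 and Egr1 at 58.8 in D16S- only. Housekeeping genes were bound in 27 of 31 in both fractions, or 26 in D16S- with equal numbers.

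For the AP-1 and MAPK, germline and housekeeping lists, and for the lists that follow, the unpaired interval of the difference spanned 0 with both numbers of peaks. By gene, 6 germline members were bound in D16S+ only and 0 in D16S- only with both numbers. The unpaired interval therefore cannot decide for that list. TGF-beta and BMP genes were bound in 27 of 38 in D16S+ and 30 in D16S-, with Smad1, Tgfbr1 and Bmp6 in D16S- only and Bmp7 in D16S+ only. Genes that silence retroviral elements, with the H3.3 chaperones, were bound in 27 of 30 and 28, and Hira held 73.3 in D16S- and no D16S+ peak. In that list 2 members were bound in D16S+ only and 3 in D16S- only, or 6 and 3 with equal numbers. Senescence and cell cycle genes were bound in 24 of 30 and 28, with Plk2 at 159 and Cdkn2b at 89.8 in D16S- only. Endoderm and trophoblast genes were bound in 10 of 28 and 9. Markers of other cell types were little bound: hematopoietic genes in 6 of 28 and 9, and neural genes in 6 of 28 and 9. Sort marker genes were bound in 8 of 12 in each.

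**Figure D5:**
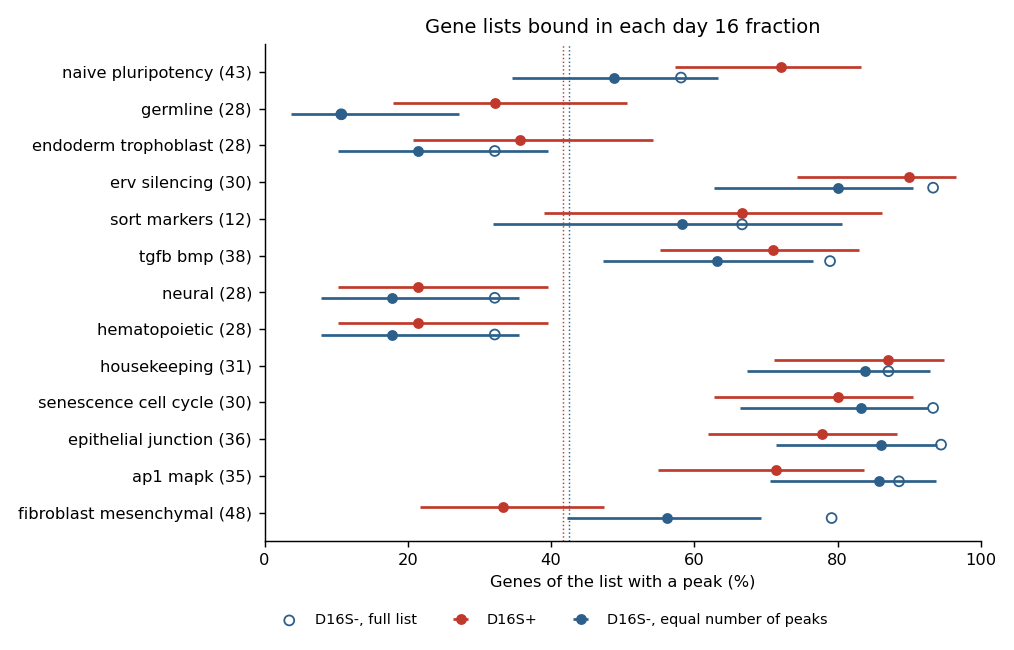
Share of each gene list with an H3.3 peak midpoint (x axis, percent) in D16S+ and in D16S- with the equal number of peaks (filled points with 95% intervals) and the full D16S- list (open points), with the number of genes in brackets. Dotted lines are the shares over all genes, 41.6% and 42.5%. Fibroblast genes stand at 33.3% in D16S+ against 56.2%, and the pluripotency list, labelled naive in the figure, at 72.1% against 48.8%.

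Genes of one day 16 fraction were also set against day 12, with equal numbers of peaks in both D12 libraries. Of the 911 strict D16S+-only genes 248 were bound in D12S+ only and 69 in D12S- only, and 503 in neither. Of the 3707 strict D16S--only genes 318 were bound in D12S+ only and 923 in D12S- only, and 1254 in both. Among genes bound in 1 of the day 12 fractions the D12S+ share was thus 78.2% (73.4 to 82.4) for D16S+-only, 25.6% (23.3 to 28.1) for D16S--only and 43.9% over all genes. With equal numbers on day 16 these shares were 67.3% and 21.1%.

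The same genes were split between the start and end of the time course. Of strict D16S+-only genes 51.8% (48.6 to 55.0) were bound in iPSCs and 18.8% (16.4 to 21.4) in D0, and of strict D16S--only genes 37.0% and 52.1%, against 41.8% and 40.9% of all genes. With equal numbers on day 16 the shares were 57.9% and 30.6% for D16S+-only genes, and 43.4% and 61.2% for D16S--only genes. The iPSC share of D16S--only genes then lay above that of all genes, not below it. Genes bound in both day 16 fractions were bound in 80.7% of cases in iPSCs and 75.2% in D0.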

How the data were processed

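The authors mapped ChIP-Seq reads to mm9 with STAR, discarding reads with several mismatches or several mapping places, and called peaks with HOMER findPeaks in the histone style against each fraction's own input. Versions of STAR and HOMER are not given in the sources used here. Per the file headers, peaks needed a fold over input of 2, a p-value over input of 0.0001 and a Poisson p-value of 0.001, and peaks of H3K4me3 and H3K36me3 a fold of 4. The deposited normalized tag count is a signal scaled to 10 M tags, and the deposited fold over input is a ratio. The deposited p-value column was not filtered again.

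Peaks sharing at least 1 bp were called shared. Class came from the peak midpoint and coding genes of GENCODE M1 (mm9). Peaks on chromosome 18 were passed over when the printed sequences were picked, which left 142 D16S+ and 1005 D16S- peaks. A gene's sum is the total normalized tag count of its peaks. Named genes were the 10 highest sums per fraction without a peak in the other, the 5 largest ratios per direction among genes of at least 20 in both, up to 6 members per list bound in 1 fraction, and genes named by the study or the sort. Gene models and Rik symbols of unnamed genes were left out. A gene that the rule names is not reported here. The members and lists were chosen with earlier results of these data known. A planned comparison with random positions was replaced by shares of the whole genome. Overlap, annotation and interval functions were tested on simulated data. Python 3.11.15, numpy 2.4.6, pandas 2.3.3 and matplotlib 3.10.9 were used. Depth was 18.7 and 20.5 M tags. Alternatives are given in the closing section.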

Additional observations from a re-analysis of the deposited data

Results flagged for a closer look

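Some lists differed in the direction of the fraction difference between day 12 and day 16, with equal numbers of peaks, and the difference between the days was not tested. The share of TGF-beta and BMP genes bound was 7.89 points higher in S+ on day 16 and was -7.89 points (S+ minus S-) on day 12. For housekeeping genes the values were 3.23 points on day 16 and -6.45 on day 12, and for hematopoietic genes 3.57 and -3.57. Senescence and cell cycle genes were at -3.33 points on day 16 and 13.3 on day 12. Each day 16 interval spanned 0.

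The input control, a measurement apart from the H3.3 tags, was dense in the peaks around Pou5f1: 36.01 times the library median in D16S+ and 20.8 times in D16S-. Peaks above 10 times the median numbered 20 of 33972 in D16S+ and 31 of 65376 in D16S-.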

How the results depend on the processing

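Of 139 values recomputed over 16 results, 74 stayed within the 95% interval of the first value (for counts of genes, within 1.5 times it), 65 moved and none reversed. Differences below are D16S+-only minus D16S--only, in percentage points. With equal numbers by normalized tag count, unshared peaks were 61.1% and 67.3%, the differences were 19.7 (intergenic), -1.68 (promoter-TSS), 22.9 (iPSCs), -32.1 (D0), 1.33 (D16S+ H3K4me3) and -6.97 (AP-1), genes of one fraction 2248 and 2460, the fibroblast list -22.9, and the D12S+ shares 67.3% and 23.5%. Ranked by tags per kb these were 66.1%, 71.7%, 16.6 (intergenic), 25.8 (iPSCs), -17.8 (D0), -6.38 (AP-1), 2364 and 2573 genes, -18.8 (fibroblast list), 32.6 (pluripotency list), 64.96% and 24.4%. With 50% of the peak covered they were 64%, 91%, 18.4 (intergenic), 24.8 (iPSCs) and 1.94 (H3K4me3). With peaks within 1000 bp shared they were 41.9%, 70.5%, 26.5, -1.63, 31.6, -25.6 and 2.07 in the order of the first list. With the top 10000 peaks against the full list they were 35.1%, 40.9%, 38.1, -2.46, 46.8, -60.4, 0.906 and -7.41, and the octamer 3.58. At a fold of at least 4 they were 75.1%, 87.8%, 15.02, -0.2998, 8.38, -7.95, 3.77 and -3.8, the octamer 0.928, and the D12S+ shares 67.1% and 30.4%. The H3K4me3 interval spanned 0 with the top 10000 peaks (-0.622 to 2.45). So did the promoter-TSS interval at a fold of at least 4 (-0.788 to 0.1998). By covered base pairs the class differences were 25.4 and -1.72, by nearest start site the D12S+ share of D16S+-only genes was 72.7%, and with full lists of the other libraries iPSCs stood at 30.3 and D0 at -28.9. The midpoint rule, added after seeing the data, gave -18.8 for D0, and with equal numbers 25.01 for iPSCs and -27.7 for D0. The strict gene rule, the list without delivered factors and the omission of peaks of high input density were also added after seeing the data. The causes were not tested. No analysis paired by replicate was possible because each fraction was 1 library, and no replicate could be left out. The list differences were not paired by gene.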

Other observations

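Some gene families, chosen after their values were seen, are given here as counts by the strict rule. Of 44 collagen genes, which encode extracellular matrix, 1 was bound in D16S+ only and 20 in D16S- only, or 5 and 11 with equal numbers of peaks. Of 21 genes of the tumor necrosis factor receptor family (Tnfrsf) none was bound in D16S+ only and 10 in D16S- only, or 1 and 6 with equal numbers. Of 371 zinc finger genes with a Zfp symbol 33 and 73 were bound in one fraction only, and with equal numbers the order turned, to 58 in D16S+ and 46 in D16S-. Of 932 genes on the X chromosome 34 and 82 were bound in one fraction only, and with equal numbers the order turned here too, to 54 and 33. Over all 22367 genes the strict shares were 4.07% and 16.6%, or 8.04% and 10% with equal numbers.

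Lama1, a laminin chain of basement membranes, held 2 peaks summing to 323.5 over 1.125 kb in D16S+ and 1 peak of 7.32 in D16S-. Median tags per kb were 14.9 in D16S+-only and 15.6 in shared D16S+ peaks, so the Lama1 peaks were unusually dense. The part of input density in the Lama1 sum was not tested. Lama1 was singled out after its values were seen.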
